A study of Homo sapiens with 3 samples.

Results

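Metalloproteinases of the MMP, ADAM and ADAMTS families and their inhibitors, the TIMPs, were examined for ZBTB11 chromatin occupancy in NCI-H1299 cells. NCI-H1299 is a human lung cancer line. All protein-coding GENCODE genes named MMP, ADAM or ADAMTS with a number, together with TIMP1 to TIMP4, were taken by symbol. This gave 66 of 20033 protein-coding genes on chromosomes 1 to 22, X and Y, of which 23 were MMP, 20 ADAM, 19 ADAMTS and 4 TIMP genes. The cells were untreated and of wild-type genotype, and chromatin was immunoprecipitated with a ZBTB11 antibody (Bethyl, A303-240A) or with control IgG (CST, 2729S). Each antibody gave 1 library of the same line, an input library was not analysed here, and no difference between genes or libraries could therefore be tested.

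MMPs are zinc-dependent endopeptidases that are secreted or held at the cell surface and that cut collagens and other matrix proteins. ADAMs sit in the membrane, where several of them release the outer part of growth factors, cytokines and receptors, while the related ADAMTS enzymes are secreted and act on proteoglycans, procollagens and von Willebrand factor. TIMPs bind the active sites of these enzymes and block them. In tumours the balance of proteases and inhibitors is widely studied for its part in invasion.

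On chromosomes 1 to 22, X and Y, 346891 peaks were listed for ZBTB11. The IgG list has peaks on chromosomes 1, 10, 21 and Y alone, and on chromosomes 1, 10 and 21 it held 26630 peaks where the ZBTB11 list held 48395. Each peak is described by the number of overlapping DNA fragments at its summit, the number expected from the local background, and the −log10 p of the excess as the peak caller gave it. The background was at least 1.35 fragments everywhere in the ZBTB11 list and at least 1.55 in the IgG list, so a peak of 3 to 7 fragments rests on few molecules. Peaks whose p-value was at most 1e-05 are called strong, and a peak is called a promoter peak when it lies within 3 kb of any transcript start site (TSS) of the gene. Intervals on fragment numbers are exact Poisson 95% intervals and cover counting error only. The depth of each library is unknown, since the files give peaks without read totals.

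The sequences under the summits are shown first for the 6 family genes whose strongest peak, where strong, carried the ZBTB11 consensus reported by the study, CCGGAAG or CAGGAAG, within 50 bp of the summit on either strand. All are taken from hg38 and printed on the strand of the gene, with the consensus or its reverse complement in capitals. The ADAM17 stretch is chr2:9555849-9555920 (minus strand), ADAM10 is chr15:58749946-58750046 (minus), TIMP2 is chr17:78883163-78883263 (minus), MMP28 is chr17:35764350-35764450 (minus), ADAMTS16 is chr5:5155764-5155864 (plus) and MMP25 is chr16:3059523-3059552 (plus), the last shortened because it lies in an annotated 3′ UTR.
ADAM17, start: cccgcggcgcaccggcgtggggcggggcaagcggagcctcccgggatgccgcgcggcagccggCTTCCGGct
ADAM10, start: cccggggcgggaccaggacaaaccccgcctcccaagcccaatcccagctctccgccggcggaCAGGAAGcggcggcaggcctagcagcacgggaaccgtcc
TIMP2, intron: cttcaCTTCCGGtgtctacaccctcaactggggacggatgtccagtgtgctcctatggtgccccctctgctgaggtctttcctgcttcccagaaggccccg
MMP28, body: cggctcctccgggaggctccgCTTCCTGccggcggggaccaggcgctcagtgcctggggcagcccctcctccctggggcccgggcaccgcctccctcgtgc
ADAMTS16, intron: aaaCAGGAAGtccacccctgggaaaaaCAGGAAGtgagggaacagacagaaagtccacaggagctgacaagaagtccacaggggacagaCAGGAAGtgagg
MMP25, exon: ccttccttttcCAGGAAGagccagcttttc
ADAM17 and TIMP2 carried the CCGGAAG form, and the other four carried CAGGAAG. The ADAMTS16 window held 3 copies. These matches are descriptions of letters under a peak and do not by themselves mark a binding site.

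Of the 66 genes, 56 (84.8%) had a ZBTB11 promoter peak of any strength, beside 87.7% of all protein-coding genes. A strong promoter peak was found at 16 (24.2%), beside 46.9% of all protein-coding genes. The strong promoter peaks belonged to 7 of 20 ADAM genes, 7 of 19 ADAMTS genes, 2 of 23 MMP genes (MMP16 and MMP25) and 0 of 4 TIMP genes. In the gene body, 61 genes (92.4%) had a peak beside 88.2%, and 18 (27.3%) had a strong one beside 46.7%. With the 3 kb around each TSS left out of the body, the order turned, with a strong peak in 7 genes (10.6%) beside 6.57%. Counting either place, 22 of the 66 had a strong peak, beside 49.8% of all protein-coding genes.

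The strongest peaks of the families were also lower. With genes lacking a peak set to 0, the median −log10 p of the strongest promoter peak was 2.74 over the 66 genes and 4.54 over all protein-coding genes. By family the median was 3.62 for ADAM, 3.0 for ADAMTS, 2.57 for MMP and 1.90 for TIMP genes. For 36 of the 56 genes with a promoter peak, the strongest one had at most 7 fragments, a count not made over all protein-coding genes. The strongest promoter peak was not strong in 40 of the 56, beside 8182 of the 17575 protein-coding genes with a promoter peak. As a set, family genes were longer, with a median of 46.8 kb against 27.5 kb for all protein-coding genes. The MMP genes were shorter, with a median of 14.7 kb. Median length was 33.6 kb for TIMP, 90.3 kb for ADAM and 172.3 kb for ADAMTS genes. The plot of the strongest peak per gene shows how few genes rise above the strong threshold.

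**Figure D1:**
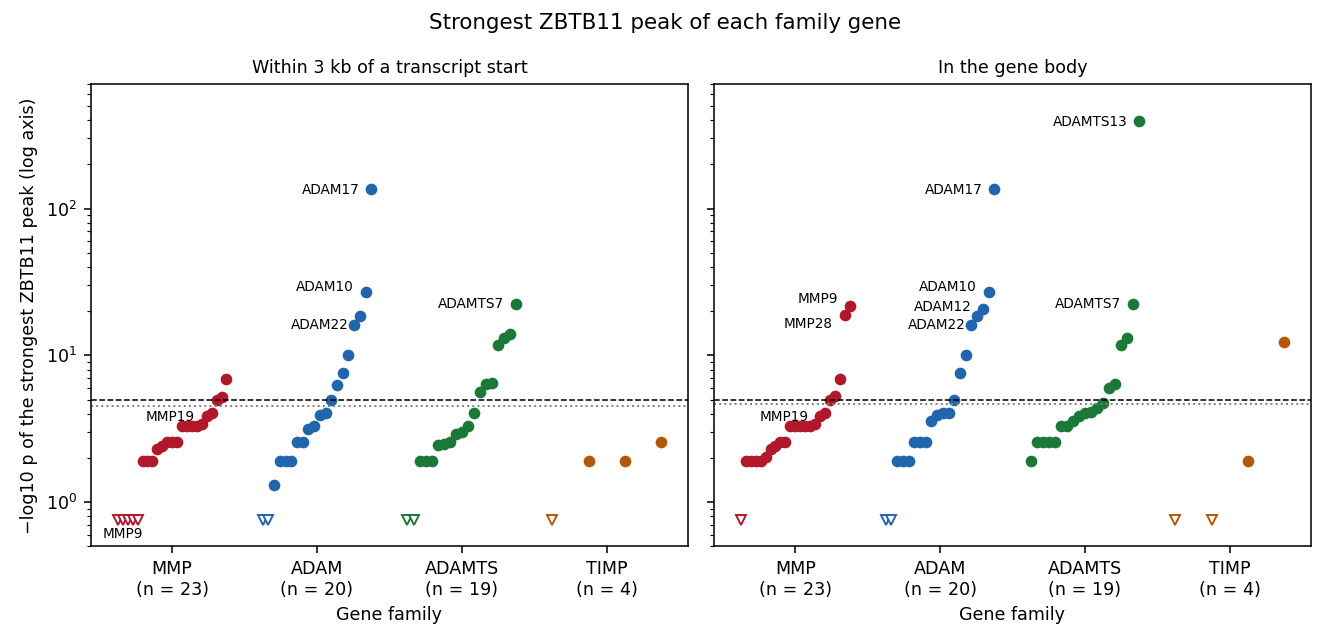
Strongest ZBTB11 peak of each of the 66 genes within 3 kb of a TSS (left) and in the gene body (right), as −log10 p on a log axis, with 1 point per gene and genes in ascending order within each family. Open triangles at the bottom mark genes with no peak, the dashed line is the strong threshold of 5, and the dotted line is the median over all protein-coding genes (4.54 left, 4.65 right). ADAM17 leads the promoter panel at 135, while MMP9 has no promoter peak and stands at 21.6 in the body panel.

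The sheddase ADAM17, which releases TNF and ligands of the EGF receptor, had the highest promoter peak of the families. Its summit lay 22 bp upstream of an ADAM17 TSS, in the peak chr2:9555372-9556250, with 155 fragments (132 to 181) over a background of 8.44 and a −log10 p of 135. It ranked 885 in the whole ZBTB11 list. ADAM10, the sheddase of Notch and the amyloid precursor protein, came next with 38 fragments (26.9 to 52.2) over 3.41 and a −log10 p of 27.0, in the peak chr15:58749458-58750364. The intervals of ADAM17 and ADAM10 did not overlap. The ADAM10 summit lay 205 bp upstream of an ADAM10 TSS and 73 bp from the start of a long non-coding RNA, so the peak cannot be given to either gene alone.

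ADAM17 was also the only family gene with CCGGAAG in its proximal promoter, taken as the 300 bases from 250 before to 50 after the canonical start. Over all protein-coding genes 14.1% held this heptamer there on either strand, against 1.52% of the family genes. Of the protein-coding promoters with CCGGAAG, 83.6% had a strong ZBTB11 peak within 3 kb. CCGGAAG or CAGGAAG together occurred in 8 of the 66 proximal promoters (12.1%), beside 24.7% overall.

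Below these came promoter peaks whose counting intervals overlapped one another. ADAMTS7, a protease of cartilage and vessel-wall matrix, had 33 fragments (22.7 to 46.3) over 3.22, 68 bp upstream of a TSS and inside the 5′ UTR of its canonical transcript. ADAM22, a neuronal receptor for LGI1 that lacks the protease motif, had 31 fragments (21.1 to 44) over 3.82, 4 bp from a TSS. ADAMTS19 had 19 fragments (11.4 to 29.7), 219 bp from a TSS. ADAMTS3, which trims procollagen and activates VEGF-C, had 17 (9.90 to 27.2), 187 bp downstream of a TSS. ADAM23, another member without the protease motif, had 15 (8.40 to 24.7), 320 bp downstream. None of these 5 summits carried the consensus.

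The ADAM21 peak sat on the start of a neighbouring gene. It had 24 fragments (15.4 to 35.7) over 2.58, and its summit lay 6 bp from a TSS of SYNJ2BP and 40 bp from a TSS of ADAM21. The ADAMTS4 peak had 21 fragments (13.0 to 32.1) over 2.32, with the summit at −3231 bp from the nearest TSS of ADAMTS4. When a strong promoter peak was counted only where its summit was nearest to a TSS of the gene itself, 14 genes (21.2%) remained of the 66, beside 39% of all protein-coding genes.

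The remaining genes with a strong promoter peak had small ones. ADAM15 had 13 fragments (6.92 to 22.2), 52 bp downstream of a TSS. ADAMTS1 and ADAM8 also had 13, the former 1179 bp upstream of the nearest ADAMTS1 TSS and the latter 2135 bp downstream of the nearest ADAM8 TSS, past the end of the canonical transcript. MMP16, a membrane-type MMP, had 11 fragments (5.49 to 19.7), 32 bp downstream of its start. MMP25, also membrane-bound, had 11 as well, but 2761 bp from its own nearest TSS and 185 bp from the start of the opposite-strand RNA MMP25-AS1. ADAMTS10 had 10 and ADAMTS14 had 9. Just below the threshold stood MMP17 with 13 fragments (−log10 p of 4.97) and ADAM19 with 10 (4.96), and their intervals overlapped those of the genes just above it.

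In the 16 genes with a strong promoter peak, the summit of the strongest one lay within 500 bp of a TSS of the gene in 11 (68.8%), beside 83.2% for all protein-coding genes with a strong promoter peak. For the 40 genes whose strongest promoter peak was not strong, the summit was that close in 9 (22.5%), beside 40.1%. In the family, weak promoter peaks were thus mostly found away from the start.

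**Figure D2:**
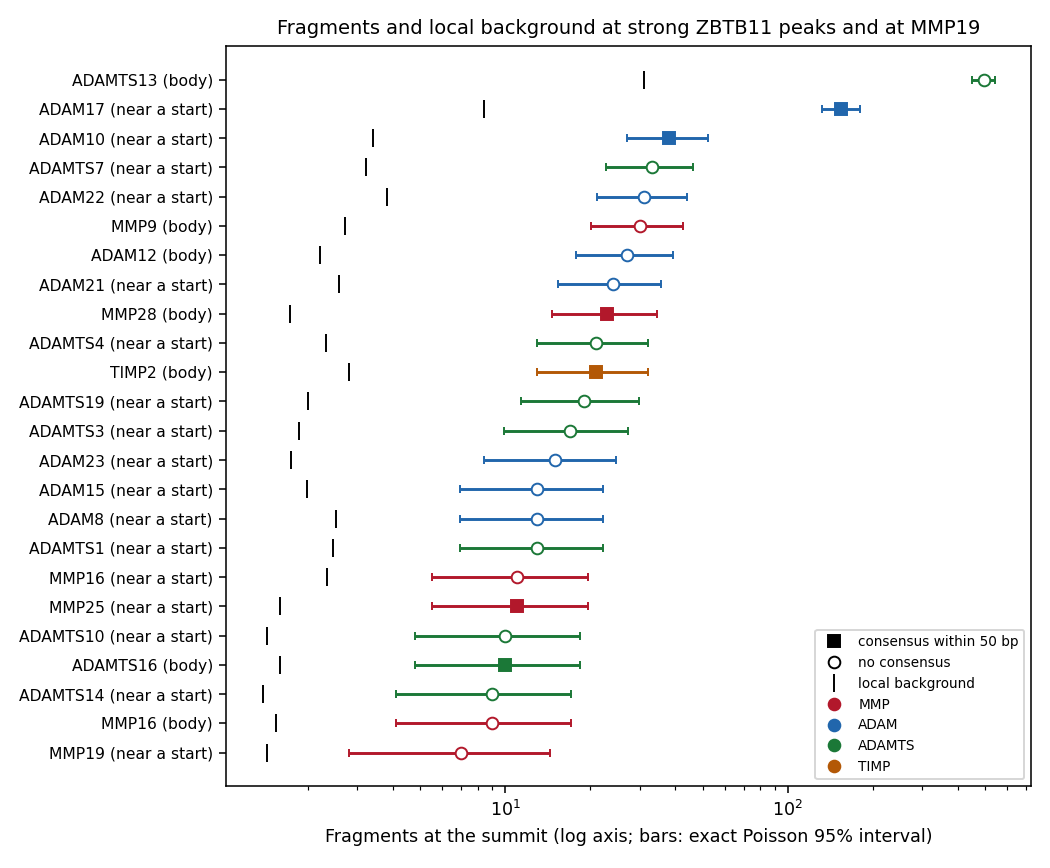
Fragments at the summit of the strongest promoter and gene-body peaks of each gene where strong (23 distinct peaks) and of the MMP19 peak, on a log axis, with exact Poisson 95% intervals, filled squares for a summit with the consensus within 50 bp and open circles for one without. Vertical ticks give the local background, colours the family. Intervals from ADAM10 downward overlap their neighbours, whereas ADAMTS13 (494) and ADAM17 (155) stand apart.

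By function, and beside the 46.9% of all protein-coding genes, strong promoter peaks were found at 4 of 9 (44.4%) ADAM sheddases (ADAM8, ADAM10, ADAM15 and ADAM17) and at 2 of 8 ADAMs without the protease motif (ADAM22 and ADAM23). Among the aggrecan-cutting ADAMTS enzymes they were found at 2 of 7 (ADAMTS1 and ADAMTS4), among the procollagen N-proteinases at 2 of 3 (ADAMTS3 and ADAMTS14), and among the membrane-type MMPs at 2 of 6. The 2 gelatinases, MMP2 and MMP9, had no promoter peak of any strength.

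A total of 10 genes had no promoter peak: MMP2, MMP9, MMP24, MMP26, MMP27, ADAM18, ADAM28, ADAMTS5, ADAMTS13 and TIMP3. The gene body held no peak in 5 genes: MMP3, ADAM8, ADAM30, TIMP3 and TIMP4. TIMP3, an inhibitor bound to the extracellular matrix, was the only gene on both lists. No peak was called over its 61.3 kb, and the 1 Mb on either side of it held 2.2 peaks per 100 kb, against 11.2 over all chromosomes.

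MMP9, the gelatinase B that the study followed, lies at chr20:46008908-46016561 on the plus strand. It had no ZBTB11 promoter peak and 1 peak in the gene body, chr20:46014175-46014710. The summit lay in intron 12, 5604 bp downstream of the TSS, with 30 fragments (20.2 to 42.8) over 2.71 expected, an 8.36-fold enrichment and a −log10 p of 21.6. This peak ranked 4148 in the whole list, was the fifth of 61 among the gene-body peaks of the families, and exceeded the gene-body value of 79.4% of all protein-coding genes. The intervals of the genes next to it in that order, ADAMTS7 with 33 fragments and ADAM12 with 27, overlapped its own.

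The study designed a ChIP-qPCR primer pair for this locus and reported that both ZBTB11 and SET were detected there. The amplicon is printed here because it can be placed against the peak. On hg38 the primers, each with 1 match in the genome, bounded the 145 bases of chr20:46014381-46014525 (plus strand), here with the primer sites in capitals.
MMP9 amplicon: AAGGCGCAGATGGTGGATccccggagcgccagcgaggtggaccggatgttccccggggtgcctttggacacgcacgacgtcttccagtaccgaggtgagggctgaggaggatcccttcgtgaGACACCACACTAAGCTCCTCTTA
The amplicon ran from exon 12, which ends at base 46014474, into intron 12, and the summit fell inside it, 13 bases from its end. No CCGGAAG or CAGGAAG was found in the whole 536 bp peak on either strand. The next peaks around MMP9 were one of 5 fragments, 5242 bp upstream of its start, and one of 12 fragments, 54 bp from a TSS of SLC12A5.

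A strong gene-body peak without any promoter peak was an uncommon arrangement. Of the 2458 protein-coding genes without a ZBTB11 promoter peak, 82 (3.34%) had a strong peak in the gene body, and 30 of these had a value at least as high as that of MMP9. Among the families it was found at MMP9 and at ADAMTS13, the protease of von Willebrand factor. The ADAMTS13 peak, chr9:133417641-133418630, was the highest in any family gene with 494 fragments (451 to 540) over 31.1, a −log10 p of 395 and rank 213. Its summit lay 28 bp from a TSS of REXO4 and 3766 bp from the nearest TSS of ADAMTS13. MMP9 had no other coding start nearer to its summit than its own.

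MMP19, at chr12:55835433-55842966, was a gene of weak peaks. Its strongest peak, in coding exon 7 and 2133 bp downstream of the nearest MMP19 TSS, had 7 fragments (2.81 to 14.4) over 1.44. The −log10 p was 3.88 and the −log10 q 1.23, which corresponds to a q-value above 0.05. The same peak was its strongest in both places. It stood at position 23 of 56 in the promoter order and 30 of 61 in the body order, and it exceeded 43.9% and 41.4% of all protein-coding genes, respectively. The intervals of MMP9 and MMP19 did not overlap. A peak of 75 fragments lay beyond the 3′ end of MMP19, with its summit 23 bp from a TSS of DNAJC14.

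**Figure D3:**
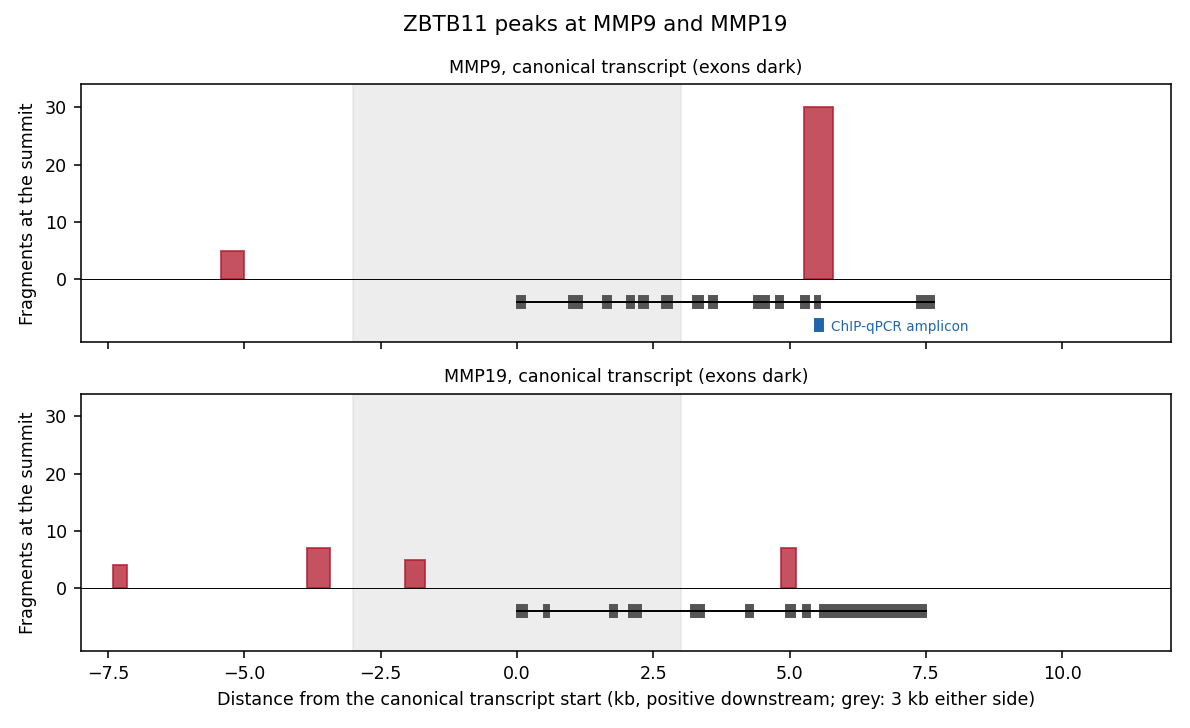
ZBTB11 peaks around MMP9 (top) and MMP19 (bottom), as boxes whose width is the called interval and whose height is the number of fragments at the summit, against distance from the canonical start in kb. Dark blocks are exons, the blue block is the ChIP-qPCR amplicon, and grey marks 3 kb on either side of the canonical start. The MMP9 peak of 30 fragments sits at 5.6 kb with the amplicon beneath it, and no MMP19 peak within the plotted range exceeds 7 fragments. The DNAJC14 peak of 75 fragments lies beyond the right edge.

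Other strong peaks inside genes lay far from any start of the gene. ADAM12, a sheddase of IGF-binding proteins, had 27 fragments (17.8 to 39.3) over 2.22 and a −log10 p of 20.7 in intron 14, 6325 bp from its nearest TSS. TIMP2, an inhibitor that also takes part in the activation of MMP2, had 21 (13.0 to 32.1) over 2.81 and a −log10 p of 12.3 in intron 1, 9063 bp from its nearest TSS, in the peak chr17:78882847-78883427. MMP28, also called epilysin, had 23 (14.6 to 34.5) over 1.73, past the end of its canonical transcript and 3926 bp from its nearest TSS. The start of C17orf50 was slightly nearer, at 3491 bp. ADAMTS16 had 10 fragments (4.80 to 18.4) in intron 3, and MMP16 had 9 (4.12 to 17.1) in intron 1, 83833 bp downstream. The body peaks of TIMP2, MMP28 and ADAMTS16 carried the consensus shown above, whereas those of MMP9, ADAM12 and MMP16 did not.

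TIMP genes otherwise had little signal. TIMP1 had 4 fragments (1.09 to 10.2) both near its starts and in its body, TIMP2 had 5 (1.62 to 11.7) within 3 kb of a start, TIMP4 had 4 near a start, and TIMP3 had no peak. In the whole list of 346891 peaks, the strongest promoter peaks of TIMP2, TIMP4 and TIMP1 ranked 148061, 214751 and 301492. The lowest promoter peak of any family gene was that of ADAM7, with 3 fragments (0.619 to 8.77) and a −log10 p of 1.31.

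The cluster of 9 MMP genes on chromosome 11 (MMP1, MMP3, MMP7, MMP8, MMP10, MMP12, MMP13, MMP20 and MMP27), which includes collagenases, stromelysins and matrilysin, spans chr11:102520508-102955732. It held 67 ZBTB11 peaks over its 435.2 kb, or 15.4 per 100 kb, and none was strong. The 1 Mb on either side of MMP8, a gene of the cluster, held 15.2 per 100 kb. Strong peaks were a small part of the whole list, where a −log10 p of 4.97 ranked 14889 of 346891. The 67 peaks of the cluster had 3 to 8 fragments, the largest −log10 p was 4.74, and 1 had a q-value of 0.05 or less. Of the 9 genes 8 had a promoter peak, and the highest were those of MMP8 and MMP13 with 6 fragments each (2.20 to 13.1). The MMP13 summit lay 3 bp from its start.

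The strongest promoter and gene-body peaks of each gene, where strong, made 23 distinct peaks, which were examined for the consensus. Second strong peaks of ADAM12, TIMP2, ADAMTS13, MMP25 and ADAM15 were left out. The consensus was present within 50 bp of the summit in 6 (26.1%), and in 4 of 46 windows (8.70%) placed 500 bp to either side. Among the promoter peaks the share was 3 of 16 (18.8%), beside 24.3% for all protein-coding genes, also taken at the strongest peak of each gene. Among the gene-body peaks it was 6 of 18 (33.3%), beside 24.6%. The body set includes promoter peaks that lie inside the gene, so the sets share peaks. Over protein-coding promoters the share rose with strength, from 12.4% at a −log10 p of 5 to 10 to 42.3% at 50 or more, and ADAM17 was the only family promoter in the upper class. The 31 bases at each of the 23 summits occurred once in hg38.

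Base composition of the proximal promoters differed between the families. A promoter was called CpG-rich when its 300 bases had at least 50% GC and a ratio of observed to expected CpG of at least 0.6. This held for 16 of 19 ADAMTS, 13 of 20 ADAM, 2 of 4 TIMP and 7 of 23 MMP genes, and for 65.5% of all protein-coding genes. Among CpG-rich promoters 14 of 38 family genes (36.8%) had a strong ZBTB11 promoter peak, beside 62.5% of all protein-coding genes in that class. Among CpG-poor promoters it was 2 of 28 (7.14%), beside 17.3%. The 2 CpG-poor genes were ADAM21, whose peak sat on the start of SYNJ2BP, and ADAMTS4. MMP9 and MMP19 were both CpG-poor, with CpG ratios of 0.14 each.

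The IgG peaks on chromosomes 1, 10 and 21 could serve as a control for the 10 family genes there. An IgG promoter peak of any strength was found at 8 of the 10 and a ZBTB11 promoter peak at 9, beside 68.7% and 87.3% of the protein-coding genes on these chromosomes. A strong ZBTB11 promoter peak was found at 5 (ADAM8, ADAM15, ADAMTS1, ADAMTS4 and ADAMTS14), beside 44.9%, and a strong IgG promoter peak at 0, beside 1.99%. Peaks in the bodies of the 10 genes numbered 87 for ZBTB11 and 51 for IgG, of which ADAM12 alone held 53 and 33. Over the whole of these chromosomes the lists held 48395 and 26630 peaks.

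At the strongest ZBTB11 promoter peak of these 5 genes, the IgG list had an overlapping peak in 2. At ADAM8 the ZBTB11 library had 13 fragments (6.92 to 22.2) and the IgG library 9 (4.12 to 17.1), with summits 72 bp apart. At the ADAMTS4 peak the values were 21 (13.0 to 32.1) and 9 (4.12 to 17.1), with summits 209 bp apart. Both pairs of intervals overlapped. At the strong ADAM12 body peak of 27 fragments no IgG peak was called, and the strongest IgG peak elsewhere in ADAM12 had 8 fragments (3.45 to 15.8). ADAM15 and ADAMTS1 had separate IgG promoter peaks of 7 and 6 fragments, and ADAMTS14 had none.

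The other 5 genes on these chromosomes had low promoter values in both libraries. MMP23B had 5 fragments (1.62 to 11.7) with ZBTB11 and 7 (2.81 to 14.4) with IgG, MMP21 had 4 and 6, and ADAM12 had 5 and 5 near its starts. ADAMTS5, a major aggrecanase of cartilage, had an IgG promoter peak of 4 fragments and no ZBTB11 promoter peak, and ADAM30 had a ZBTB11 peak of 4 fragments and no IgG peak. Where both libraries had a peak in these genes (MMP23B, MMP21 and ADAM12), the counting intervals overlapped. The IgG peaks did not overlap the strongest ZBTB11 promoter peaks of these genes in position, so the counts come from different sites. MMP9, MMP19, ADAM17 and ADAM10 lie outside chromosomes 1, 10 and 21, and the IgG list gives no control for them.

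**Figure D4:**
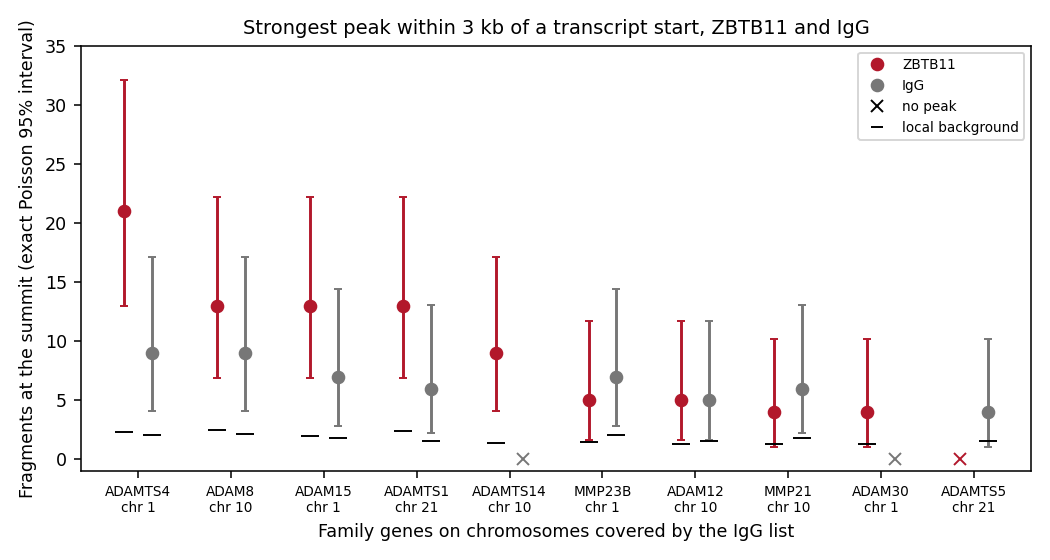
Fragments at the strongest peak within 3 kb of a TSS in the ZBTB11 (red) and IgG (grey) libraries for the 10 family genes on chromosomes 1, 10 and 21, with exact Poisson 95% intervals. Crosses at 0 mark genes with no peak, and short horizontal lines give the local background. ADAMTS4 has the highest ZBTB11 value at 21 fragments against 9 for IgG, and every pair of counting intervals with both peaks present overlaps. Only at ADAM8 and ADAMTS4 does the IgG peak overlap the ZBTB11 peak in position.

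Many family genes are long, and the number of peaks inside them varied with the peak density around them. In the 22 genes of at least 100 kb, all of them MMP, ADAM or ADAMTS genes, the gene body held 1.7 (ADAMTS9) to 20.1 (ADAMTS12) peaks per 100 kb with a median of 12.8. The 1 Mb on either side held 3.4 to 16.8. Across the 22 genes the body and flanking densities had a Pearson r of 0.84 and a Spearman rho of 0.85, given as a description of genes measured in 1 library and that lie within the flanked stretch. ADAMTS17 lay below its surroundings with 3.8 against 10.9, and ADAM9 lay above with 12.9 against 7.0. ADAMTS12, with 74 peaks in its 368.5 kb and 16.0 per 100 kb around it, had no strong one. Strong peaks were a small part of the whole list, as given for the chromosome 11 cluster.

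**Figure D5:**
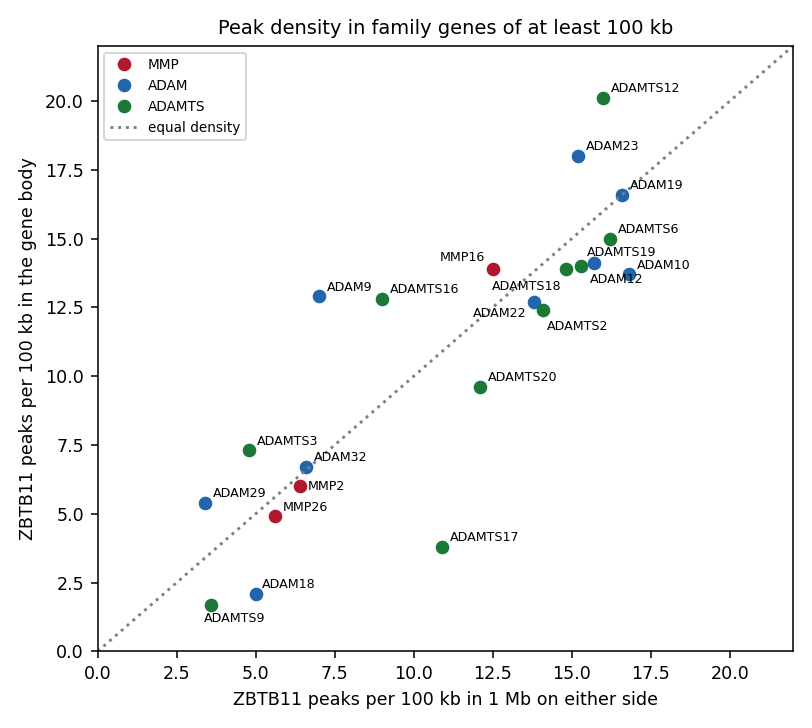
ZBTB11 peaks per 100 kb in the gene body against peaks per 100 kb in the 1 Mb on either side, for the 22 family genes of at least 100 kb, coloured by family. The dotted line marks equal density. ADAMTS9, ADAM29 and ADAM18 lie at the low end on both axes and ADAMTS12 and ADAM23 at the high end.

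Genes that activate, restrain or resemble the families were counted in the same way from a list of 33. A promoter peak of any strength was found at 32 and a strong one at 15 (45.5%), beside the 46.9% of all protein-coding genes given above. FURIN and PCSK6, proprotein convertases that remove the prodomains of some of these enzymes, had 37 and 46 fragments. PLAU, the urokinase of the plasmin system, had 38, its receptor PLAUR had 31, and SERPINE2, an inhibitor of such serine proteases, had 18. TSPAN5, a tetraspanin that escorts ADAM10, had 25. The ADAMTS-like ADAMTSL4 had 68, with the summit 3564 bp from its nearest TSS. The membrane-anchored MMP inhibitor RECK had 8 fragments and a −log10 p of 3.53. TSPAN10 had 435 fragments and RHBDF1 had 16, but their summits were nearest to a TSS of NPLOC4 and of MPG, respectively.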

How the data were processed

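NCI-H1299 chromatin was profiled with 1 ZBTB11 and 1 IgG library. The authors' methods describe BWA alignment to hg38 and peak calling by MACS, run on each library separately with a p-value cutoff of 0.05. The release of MACS behind these files is uncertain, since their layout is that of releases later than the one named. Per the deposited files, each peak has a score, a fold enrichment (a ratio over the local background), a −log10 p and −log10 q, and a summit offset in bp, which the authors left unfiltered.

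Here, peaks were assigned to GENCODE release 44 genes (summit positions and all intervals 1-based), and each gene's strongest peak by −log10 p was kept within 3 kb of any TSS and in the gene body. Whole fragments and the background at the summit were solved from the fold enrichment, with 1 added to both, and from the Poisson p. The solver was checked on simulated data. Python 3.11.15, numpy 2.4.6, scipy 1.17.1, pysam 0.24.0 and matplotlib 3.10.9 were used. Promoter composition was computed from hg38 at the canonical start, because 39 of the 66 genes matched the RefSeq promoter table (59.1%, under the 80% set for such a check). Named genes were MMP9, MMP19, the TIMPs, every gene with a strong peak, without a promoter peak, on chromosomes 1, 10 or 21 or in the chromosome 11 cluster, and the lowest gene of each family. The 1501 ZBTB11 and 1165 IgG peaks outside chromosomes 1 to 22, X and Y were not used. Family members and gene lists were chosen with earlier results of these data known. Alternatives changed the window, the start annotation, the thresholds and the consensus search.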

Additional observations from a re-analysis of the deposited data

How the results depend on the processing

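No paired analysis was possible because the ZBTB11 and IgG arms hold a single library each, and no result comes from a test. Of 49 alternative values over 9 results, 35 stayed within 1.5 times the reported count or were identical, and 14 moved. With a q-value of 0.05 or less, promoter peaks were found at 21 genes (31.8%, beside 55.3% of protein-coding genes) and body peaks at 27 (40.9%, beside 57.6%), and on chromosomes 1, 10 and 21 promoter peaks at 5 of 10 for ZBTB11 (beside 53.6%) and 0 for IgG (beside 3.02%). With a p-value of 0.001 or less these were 31 (47%, beside 66.6%), 40 (60.6%, beside 71.2%), 5 (beside 65%) and 3 (beside 32.2%). The share with any body peak, above that of all protein-coding genes as reported, was thus below it at both thresholds. The share with any promoter peak, below it as reported, was above it with a 5 kb window (92.4% beside 92.1%) and with the summit nearest to the gene's own TSS (83.3% beside 82.1%). Strong promoter peaks numbered 9 at a p-value of 1e-10 or less (13.6%, beside 31.8%), and strong body peaks numbered 7 once 3 kb around each TSS was left out of the gene body (10.6%, beside 6.57%, the reverse of the reported 27.3% beside 46.7%). IgG promoter peaks were found at 4 of the 10 genes with a 1 kb window (beside 52.1%). The strongest value of MMP19 became 4.07 with a 5 kb window, at a peak of 7 fragments upstream of the gene. The consensus share of 26.1% became 8.70% with CCGGAAG alone and 8.70% in the flanking windows. The share of family genes with a strong promoter peak was below that of all protein-coding genes in all 9 settings, the reported one included. The value of MMP9 was the same under both other windows. RefSeq starts were found for all 66 genes. Weak peaks of 3 to 7 fragments are limited by depth, and a missing peak means that none was called at this depth. For genes outside chromosomes 1, 10 and 21 no IgG value stands beside the ZBTB11 value, and with 1 library per antibody the spread between replicates is unknown.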

Other observations

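Genes named after the families but coding for no family protein were not counted among the 66. MMP24OS, a protein-coding gene on the opposite strand at MMP24, had a ZBTB11 peak of 48 fragments over 4.85, with a −log10 p of 31.2 and the summit 313 bp downstream of its start, whereas MMP24 itself had no promoter peak. ADAMTS19-AS1 shared the ADAMTS19 promoter peak of 19 fragments, and MMP25-AS1 shared the MMP25 peak of 11. ADAM7-AS1 had a peak of 8 fragments, with the summit 247 bp from a TSS of NEFM. PAPLN, an ADAMTS-like protein also called papilin, had 11 fragments near its starts and 106 over 6.55 in its gene body, where the summit carried the consensus.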
